A study of Mus musculus with 8 samples.

Results

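Satellite cell and myogenic factor genes are described here by 9 genes, chosen by name from the 54532 genes of the table: *Pax7*, *Myf5*, *Myod1*, *Myog*, *Cdh15*, *Chodl*, *Fgfr4*, *Calcr* and *Musk*. The series holds 8 RNAseq libraries, with read counts per gene, made from sorted mG+ cells (cells positive for membrane GFP) of females 8 months old. KO mice were Tie2e-cre; TERTfl/fl; mTmG and WT mice were Tie2e-cre; TERT+/+; mTmG, so that all groups carried the Cre, driven by the endothelial *Tie2e* promoter, and the mTmG reporter, which turns membrane GFP on in cells where Cre has acted and in their progeny. Libraries came from subcutaneous adipose tissue (SAT) of mice on a high fat diet (HFD) and from SAT, visceral adipose tissue (VAT) and gastrocnemius muscle of mice on chow. These are 4 pairs of 1 WT and 1 KO library each, and the sources used here do not say whether mice were pooled.

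Satellite cells are the stem cells of skeletal muscle and lie between a fibre and its basement membrane. They carry the transcription factor PAX7 when quiescent, pass through the myogenic regulatory factors MYF5 and MYOD1 when they are activated, and turn on myogenin (*Myog*) when they differentiate and fuse into fibres. They do not belong to the endothelial lineage. The other genes act at their surface: *Cdh15* encodes M-cadherin, which joins the satellite cell to its fibre, *Chodl* encodes the membrane protein chondrolectin, *Fgfr4* a receptor for fibroblast growth factors, *Calcr* the calcitonin receptor, which holds satellite cells quiescent, and *Musk* the receptor tyrosine kinase that clusters acetylcholine receptors at the neuromuscular junction.

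Library totals ran from 6214269 to 18855772 counts, and 16034 to 24688 genes had at least 1 count. A count of 3, used as the floor for bounds, corresponded to between 0.184 and 0.434 CPM, the unit of level used here, which is the count scaled to the library size by TMM. Reads of *Tert*, the deleted gene, numbered 114 (WT) and 0 (KO) on HFD, 70 and 11 in SAT on chow, and 24 and 7 in muscle. The VAT libraries had 3 (WT) and 9 (KO), a direction opposite to the labels, though the counting interval of WT over KO, 0.088 to 2.03, includes equality. *Tert* thus does not bear out the VAT labels, and these are written as the VAT libraries labelled WT and KO. Markers of the sorted lineage were present throughout, the 12 endothelial genes summing to between 324 and 2650 CPM, and so were markers of other cells: 8 neutrophil genes summed to 26331 and 30236 CPM in the 2 muscle libraries, against at most 264 CPM in the 6 fat libraries.

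Reads of the 9 genes were found mostly in the WT muscle library, in which each of the 9 had its highest level. The share of all genes highest there is not given here, so this describes the 9 genes only. The highest level of *Musk* rests on 8 counts, at 0.491 CPM (0.212 to 0.967). Its interval overlaps that of KO SAT on chow, at 0.372 CPM (0.137 to 0.810). The summed level of the 9 genes was 63.0 CPM in WT muscle (1026 counts, 95% Poisson interval 59.2 to 66.9 CPM) and 11.1 CPM in KO muscle (151 counts, 9.42 to 13.1 CPM). In fat on chow it was 11.1 CPM in the VAT library labelled WT (100 counts, 9.03 to 13.5 CPM), 0.585 CPM in the VAT library labelled KO (8 counts), 2.97 CPM in WT SAT (48 counts) and 1.36 CPM in KO SAT (22 counts). In the 2 libraries of SAT on HFD all 9 genes had 0 counts, which allows up to 3 counts, or 0.434 CPM in WT and 0.232 CPM in KO, for each gene. Of 9908 genes with 8 to 283 counts in WT muscle, the range of the 9, 2031 (20.5%) were at 0 in both of these libraries. These 2 libraries also had the fewest genes detected, 16076 in WT and 16034 in KO. Intervals and floors cover counting error only. The tissues therefore overlapped: the KO muscle library lay at the level of the VAT library labelled WT. Both muscle libraries exceeded all 6 fat libraries in *Chodl* alone. The share of all genes that did so is not given here, so this describes the 9 genes only. In bulk samples fewer cells of a type and less RNA per cell cannot be told apart.

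**Figure D1:**
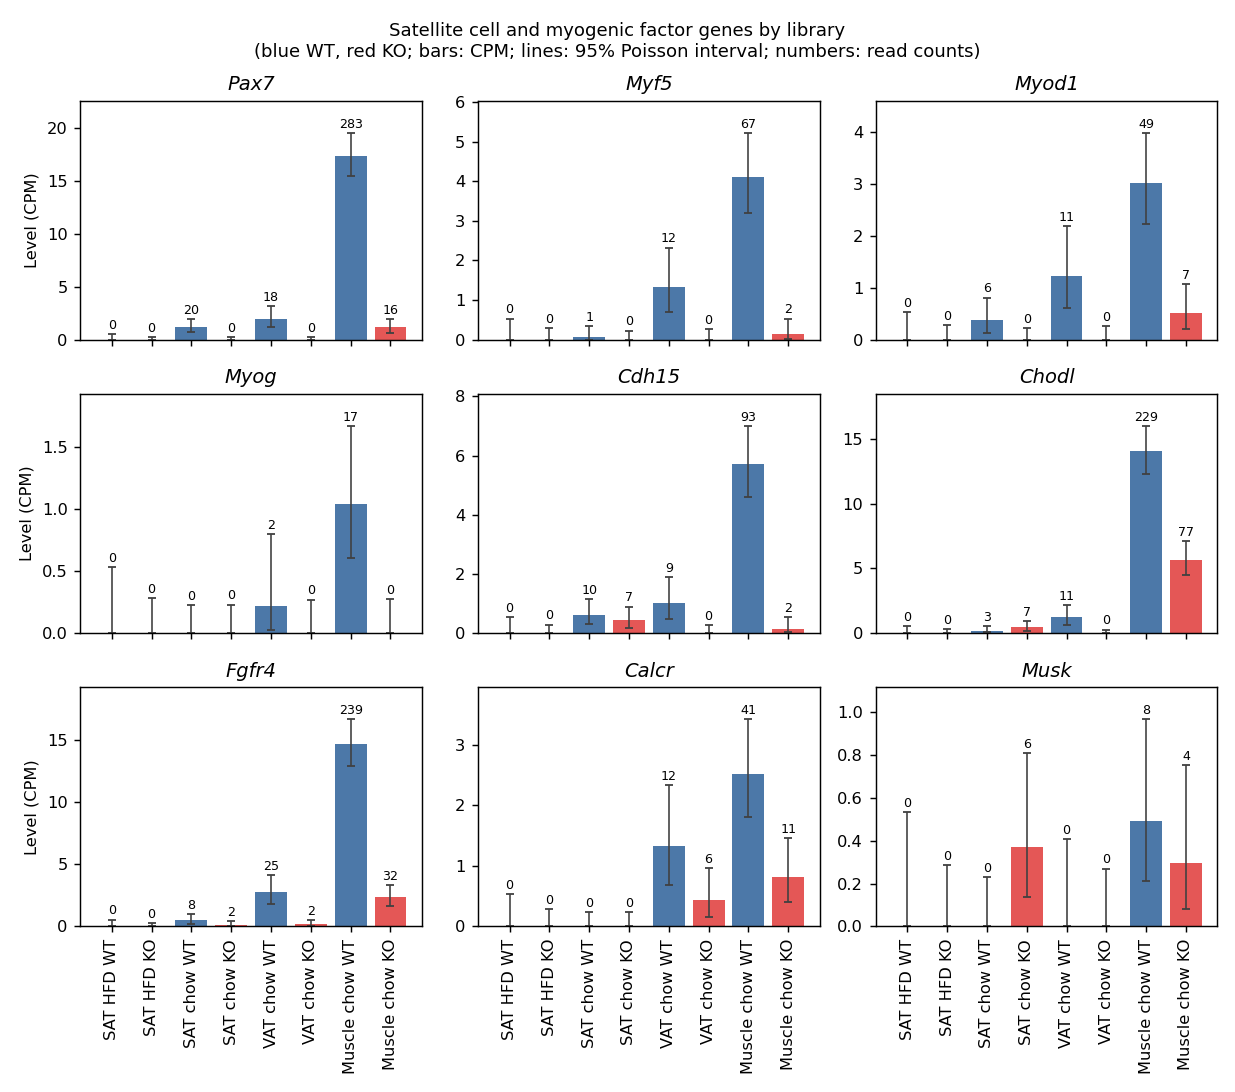
Level in CPM (vertical axis, from 0) of each of the 9 genes in the 8 libraries, with blue bars for WT, red bars for KO, 95% Poisson intervals as lines and read counts above them. The tallest bar of every panel is WT muscle, and the 2 libraries of SAT on HFD are at 0 throughout.

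*Pax7*, the lineage factor (chromosome 4, 139737062 to 139833528, GRCm38), had 283 counts in WT muscle and 16 in KO muscle. In fat it had 20 counts in WT SAT on chow and 18 in the VAT library labelled WT, and 0 in the other 4 fat libraries. KO muscle, at 1.18 CPM, was thus no higher than the 2 fat libraries that had reads, at 1.24 and 2.0 CPM, while WT muscle was at 17.4 CPM. *Pax3*, its paralogue in the limb lineage, had 1 count in the whole series, in the VAT library labelled WT.

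Among the myogenic regulatory factors, *Myf5* (chromosome 10, 107482908 to 107486134) had 67 counts in WT muscle, 2 in KO muscle, 12 in the VAT library labelled WT, 1 in WT SAT on chow and 0 elsewhere. *Myod1* (chromosome 7, 46376474 to 46379099) had 49 counts in WT muscle, 7 in KO muscle, 11 in the VAT library labelled WT, 6 in WT SAT on chow and 0 elsewhere. *Myog*, the factor of differentiation (chromosome 1, 134289989 to 134292548), had 17 counts in WT muscle, 2 in the VAT library labelled WT and 0 in the other 6 libraries. Both early factors were thus ordered WT muscle, then VAT labelled WT, then KO muscle. *Myf6*, the fourth factor of the family and a gene of mature fibres, lies 6718 bases from *Myf5* and had 1 count in the series, in the VAT library labelled WT.

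Of the surface genes, *Chodl* (chromosome 16, 78930948 to 78951733) had 229 counts in WT and 77 in KO muscle, 11 and 0 in the VAT libraries labelled WT and KO, and 3 and 7 in WT and KO SAT on chow. *Fgfr4* (chromosome 13, 55152640 to 55168759) had 239 and 32 counts in WT and KO muscle, 25 and 2 in VAT, and 8 and 2 in SAT on chow. *Cdh15* (chromosome 8, 122847966 to 122867397) had 93 and 2 counts in muscle, 9 and 0 in VAT, and 10 and 7 in SAT on chow. It was thus the 1 gene of the 9 with more CPM in both SAT chow libraries, at 0.619 and 0.434, than in KO muscle, at 0.147. *Calcr* (chromosome 6, 3685680 to 3764714) had 41 and 11 counts in muscle, 12 and 6 in VAT and 0 in SAT on either diet. *Musk* (chromosome 4, 58285960 to 58374303) had 8 and 4 counts in muscle, 0 and 6 in WT and KO SAT on chow, and 0 elsewhere, so it did not separate muscle from fat. *Cdh15* overlaps 1 annotated gene model on its own strand and *Calcr* hosts 2 miRNA genes, and all 3 had 0 counts in all libraries.

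Per length, the order in WT muscle was led by *Fgfr4* at 4.14 CPM per kilobase of gene model, above *Pax7* at 2.96 beyond counting error. *Pax7*, *Chodl* (2.56), *Myf5* (1.97), *Cdh15* (1.76) and *Myod1* (1.62) followed in an order in which no neighbours differed beyond counting error. *Myog* (0.698) and *Calcr* (0.643) lay lower and did not differ from each other, and *Musk* (0.130) was lowest. In KO muscle *Chodl* led at 1.03 CPM per kilobase, followed by *Fgfr4* at 0.666, each above its next neighbour beyond counting error. *Pax7* was at 0.201 CPM per kilobase there, next to *Calcr* at 0.207 and *Myod1* at 0.277, which could not be ordered.

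The sequences upstream of 4 of these genes are shown because the factors encoded by *Myf5*, *Myod1* and *Myog* bind the E-box, CANNTG, and the genes shown range from the most matches to none. RefSeq windows were matched for 8 of the 9 genes; each runs 5′ to 3′ on the strand of the gene, ends before the start of the gene model, and has E-boxes in capitals (both strands read alike, as the motif is its own reverse complement).
Chodl, GRCm38.p6 chr16:78930698-78930947, plus strand: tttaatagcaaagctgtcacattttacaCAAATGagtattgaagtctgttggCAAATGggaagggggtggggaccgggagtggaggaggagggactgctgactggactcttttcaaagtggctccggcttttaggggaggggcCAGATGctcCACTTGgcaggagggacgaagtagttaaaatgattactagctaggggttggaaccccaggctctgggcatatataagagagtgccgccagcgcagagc
Musk, GRCm38.p6 chr4:58285712-58285959, plus strand: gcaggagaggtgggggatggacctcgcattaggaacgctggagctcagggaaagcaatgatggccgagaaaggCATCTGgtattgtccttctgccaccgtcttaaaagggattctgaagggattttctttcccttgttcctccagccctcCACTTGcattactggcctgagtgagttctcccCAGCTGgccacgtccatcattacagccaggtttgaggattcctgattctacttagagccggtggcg
Myog, GRCm38.p6 chr1:134289754-134289988, plus strand: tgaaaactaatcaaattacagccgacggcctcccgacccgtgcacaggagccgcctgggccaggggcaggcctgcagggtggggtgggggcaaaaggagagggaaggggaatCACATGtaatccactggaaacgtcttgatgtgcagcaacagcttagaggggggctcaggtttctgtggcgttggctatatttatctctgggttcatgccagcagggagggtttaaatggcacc
Myf5, GRCm38.p6 chr10:107486135-107486384, minus strand: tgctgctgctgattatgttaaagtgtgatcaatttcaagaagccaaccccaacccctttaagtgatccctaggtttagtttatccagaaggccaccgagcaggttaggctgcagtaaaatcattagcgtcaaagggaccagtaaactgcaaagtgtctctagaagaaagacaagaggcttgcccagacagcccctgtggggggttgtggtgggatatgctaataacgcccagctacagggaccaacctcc

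In the 250 bases before the RefSeq start, *Chodl* had 4 E-boxes, *Musk* 3, of which 1 reads CAGCTG, and *Myf5* 0, while *Myog* had 1 in the stretch shown. Of all 32851 promoter windows of this length, 66.2% held at least 1 E-box, 3.84% held 4 or more and 33.8% held none, and 13.0% held CAGCTG. A match is a description of these letters only.

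Muscle was compared with fat across all 8 libraries by the quasi-likelihood test of edgeR (p-values adjusted by Benjamini-Hochberg), as the 2 muscle libraries against the mean of the 3 fat groups, with genotype as a term. Of 16971 genes averaging 10 counts or more, 569 (3.35%) were higher and 54 (0.318%) lower in muscle. Among the 9 genes, 5 passed the filter, and *Fgfr4* alone was called higher, with a fitted log2 difference of 5.64 (SE 1.12, adjusted p = 0.0440), 2 muscle libraries against 6. *Pax7*, at 6.31 (SE 1.34, adjusted p = 0.0553), and *Chodl*, at 6.26 (SE 1.44, adjusted p = 0.0755), had larger differences that missed the threshold. *Myf5* was at 4.94 (SE 1.65, adjusted p = 0.218) and *Cdh15* at 3.44 (SE 1.73, adjusted p = 0.481). *Myod1*, *Myog*, *Calcr* and *Musk* were below the filter and were not tested. Without WT muscle, 1 of the 9, *Chodl*, passed the filter. *Pax7*, *Myf5*, *Cdh15* and *Fgfr4* thus passed through the library where they are highest, so their values are a description and not support. Since SAT on HFD was at 0 for all of these genes, the fitted values depend on the prior count and are not bounds. The call of *Fgfr4* was lost in 11 of 17 alternatives, of which 2, without SAT on HFD and chow alone, are the same fit. Its difference was 3.77 without SAT on HFD (edgeR adjusted p = 0.0590) and 2.95 against VAT alone (edgeR adjusted p = 0.463). By edgeR its adjusted p was 0.0613 without WT SAT on chow, 0.158 and 0.173 without the VAT library labelled WT or KO, and 0.590 without KO muscle, while without WT muscle it did not pass the filter.

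In the muscle pair, 9 of 9 genes had a lower level in KO than in WT, with 8 of the 9 counting intervals below equality. Such intervals excluded equality in other lists too, and the share over all genes is not given here. They lay below equality for 12 and above it for 6 of a further 22 satellite cell or myoblast genes. Below it were also 7 of 8 macrophage and 6 of 7 T cell genes. Of 12 endothelial and 12 fibro-adipogenic genes 0 were below it, and 11 and 10 were above it. With 1 library per genotype these values compare 2 libraries, and no p-value was computed. *Pax7* was 14.7-fold lower in KO (95% counting interval 8.91 to 26.1). *Myf5* was 27.9-fold lower (7.43 to 235) and *Cdh15* 38.7-fold lower (10.4 to 325), each on 2 counts in KO, so that only the lower end of the interval is informative. *Fgfr4* was 6.22-fold lower (4.29 to 9.30) and *Myod1* 5.83-fold lower (2.63 to 15.3). *Calcr* was 3.10-fold lower (1.57 to 6.70) and *Chodl* 2.48-fold lower (1.91 to 3.25). *Myog*, at 0 in KO, was at least 4.72-fold lower against the floor of 3 counts. *Musk* was 1.67-fold lower with an interval from 0.446 to 7.56, and no difference was detectable at 8 and 4 counts. The intervals of *Chodl* and *Pax7* did not overlap, nor did those of *Chodl* and *Fgfr4*.

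**Figure D2:**
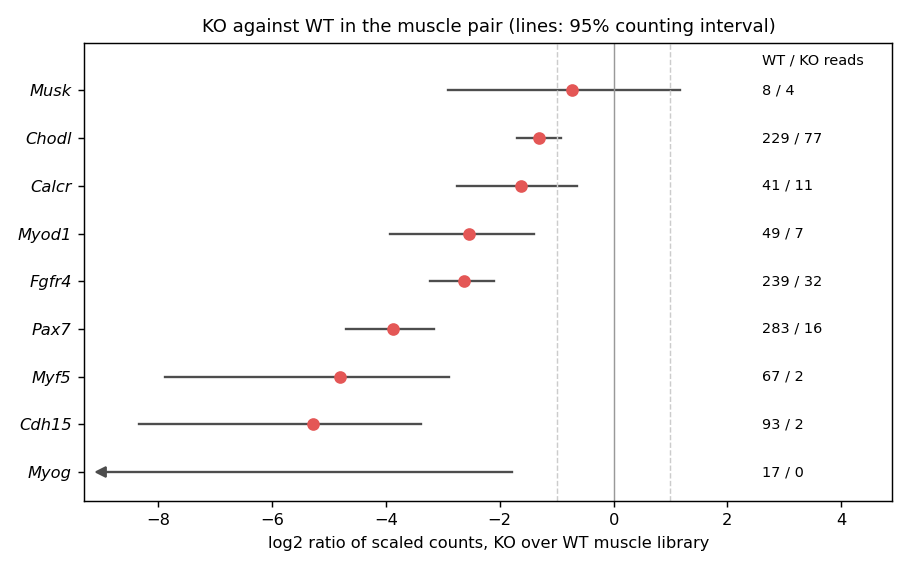
Log2 ratio of TMM-scaled counts, KO over WT muscle library (horizontal axis), for the 9 genes, with points at the ratio and lines for the 95% counting interval; the arrow marks *Myog*, at 0 counts in KO, and dashed lines mark 2-fold. All intervals but that of *Musk* lie below 0, and that of *Chodl* is the narrowest.

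Of 16967 genes averaging 10 counts or more over both muscle libraries, 6.15% were more than 2-fold lower in KO and 8.76% more than 2-fold higher, and the median log2 ratio was near 0, at 0.00079. Scaled by library totals alone, the median of all genes was 0.16, and 824 genes were lower and 1876 higher, against 1043 and 1487, while 7 of the 9 genes were more than 2-fold lower under both scalings. The median over the 4 pairs moved likewise, from 0.026 to 0.14, and changes are given here relative to TMM. All 7 of the 9 genes that passed this filter were more than 2-fold lower, with a median log2 ratio of -2.62. *Myf5*, *Cdh15* and *Myod1* had under 10 counts in KO and passed through the WT library, so the count over the genes that passed is a description and not support. Summed over the 9 genes the level was 5.66-fold lower in KO muscle (4.77 to 6.76), and without *Chodl*, the gene with the most KO reads, 8.97-fold lower (7.06 to 11.5).

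**Figure D3:**
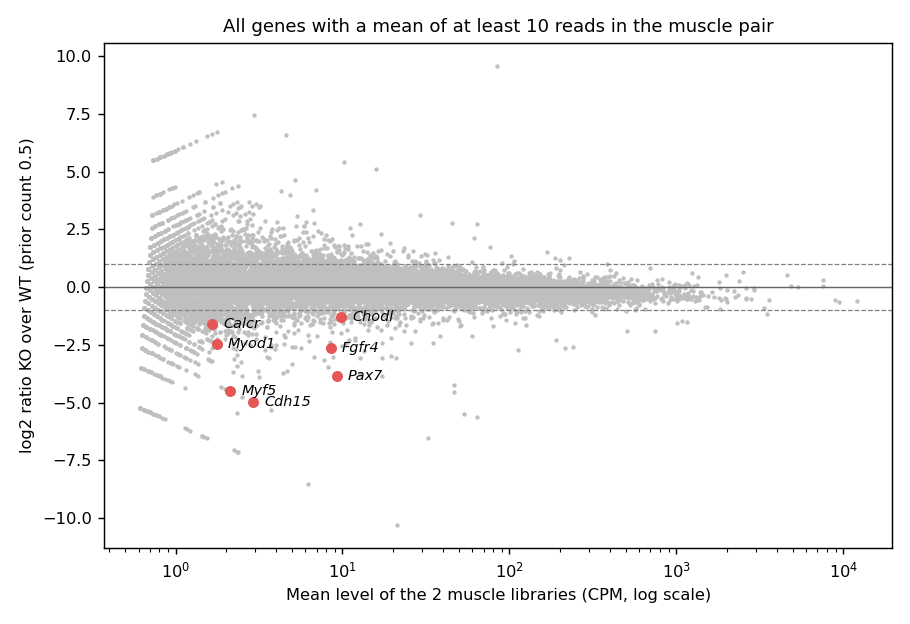
Log2 ratio KO over WT (vertical axis) against mean level in CPM (horizontal log axis) for the 16967 genes averaging 10 counts or more over both muscle libraries, with the 7 of the 9 genes that passed in red and dashed lines at 2-fold. All 7 lie below the lower dashed line, and the spread of all genes widens towards low levels.

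A view that needs no scaling between libraries is the share of each gene among the reads of the 9. In WT muscle *Pax7* made up 27.6% of 1026 reads (95% Clopper-Pearson interval 24.9 to 30.4%), *Fgfr4* 23.3% and *Chodl* 22.3% (19.8 to 25%). In KO muscle *Chodl* made up 51.0% of 151 reads (42.7 to 59.2%), *Fgfr4* 21.2% (15.0 to 28.6%) and *Pax7* 10.6% (6.18 to 16.6%). The composition thus differed between these libraries beyond counting error: the intervals of *Chodl* and *Pax7* did not overlap between the genotypes. *Cdh15*, at 9.06% (7.38 to 11%) in WT and 1.32% (0.161 to 4.70%) in KO, and *Myf5*, at 6.53% (5.10 to 8.22%) and 1.32% (0.161 to 4.70%), did not overlap either. Shares of *Fgfr4*, *Myod1*, *Myog*, *Calcr* and *Musk* overlapped. All shares are parts of the same total, so a higher share of *Chodl* lowers the others. The differences of *Chodl*, *Pax7*, *Cdh15* and *Myf5* are therefore not separate results. In the VAT library labelled WT, the 100 reads were spread over 8 genes, with *Fgfr4* at 25%, *Pax7* at 18%, *Myf5* and *Calcr* at 12% each and *Chodl* at 11% (5.62 to 18.8%), the last below both muscle libraries. These intervals were not adjusted for the number of genes.

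**Figure D4:**
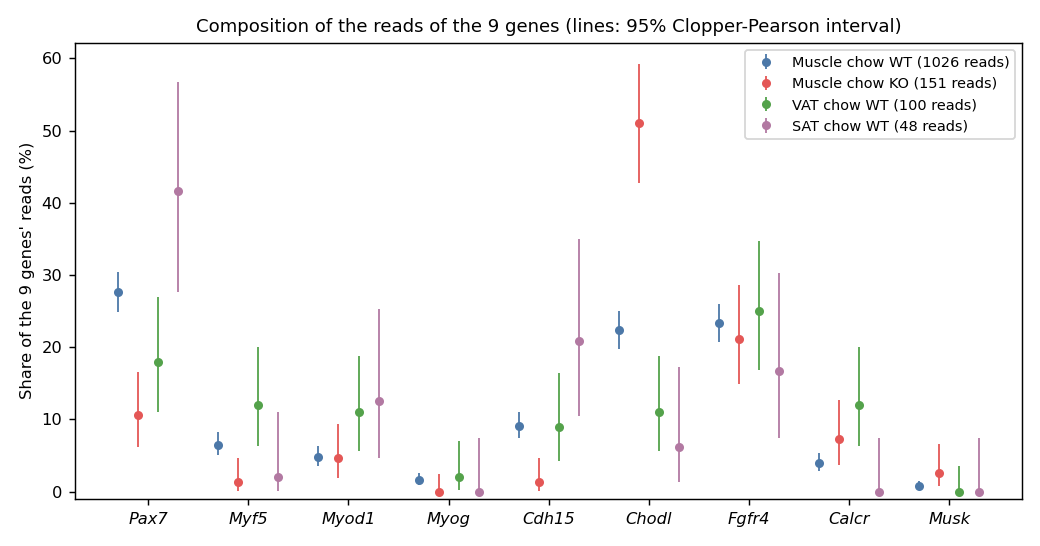
Share in percent (vertical axis) of each of the 9 genes among their summed reads, for WT muscle (1026 reads), KO muscle (151 reads), the VAT library labelled WT (100 reads) and WT SAT on chow (48 reads), with 95% Clopper-Pearson intervals. *Chodl* is at 51.0% in KO muscle and 22.3% in WT muscle, and *Pax7* at 10.6% and 27.6%.

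The other pairs are given side by side. In VAT the summed level of the 9 genes was 19.0-fold lower in the library labelled KO (9.28 to 45.2), a direction drawn from labels that *Tert* does not bear out. *Pax7* was at least 9.12-fold lower there, and *Fgfr4* was 19.0-fold lower (4.74 to 165) on 2 counts. In SAT on chow the sum was 2.18-fold lower in KO (1.29 to 3.79). *Pax7* was at least 6.65-fold lower in KO SAT, *Cdh15* 1.43-fold lower with an interval from 0.490 to 4.41, and *Chodl* and *Musk* had more reads in KO than in WT. *Calcr* could be compared in VAT alone among the fat pairs, with 12 and 6 counts and a 3.04-fold lower level in the library labelled KO (1.06 to 9.87).

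Across the 4 pairs, with tissue and diet as a block, the same test called 1 of 16971 genes (0.00589%), and 277 had an unadjusted p under 0.05. None of the 5 tested genes of the 9 was called, each with an adjusted p of 0.9996. Their fitted log2 differences, KO minus WT, were -5.08 for *Pax7* (SE 1.44, edgeR unadjusted p = 0.00977), -4.81 for *Myf5* (SE 1.90, edgeR unadjusted p = 0.0387), -2.81 for *Fgfr4* (SE 1.16, edgeR unadjusted p = 0.0454), -3.55 for *Cdh15* (SE 2.01, edgeR unadjusted p = 0.122) and -1.44 for *Chodl* (SE 1.61, edgeR unadjusted p = 0.402). Of all genes tested, 0.577% were lower in KO with an unadjusted p under 0.05. *Pax7*, *Myf5*, *Cdh15* and *Fgfr4* passed the filter through the WT muscle library, which favours lower values in KO. Their p-values set beside that share are therefore a description and not support. Since SAT on HFD had no reads of these genes, 3 of the 4 pairs carried the comparison, and 1 of the 3 is VAT, whose labels *Tert* does not bear out. Without the VAT pair the log2 difference was -4.46 for *Pax7* (edgeR unadjusted p = 0.0373), -3.90 for *Myf5* (edgeR unadjusted p = 0.184), -2.17 for *Fgfr4* (edgeR unadjusted p = 0.204), -2.50 for *Cdh15* (edgeR unadjusted p = 0.377) and -0.13 for *Chodl* (edgeR unadjusted p = 0.941).

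A further 22 genes used as satellite cell or activated myoblast markers did not move with the 9 as a group. Of the 20 that could be compared in the muscle pair, 3 were more than 2-fold lower in KO and 0 more than 2-fold higher, with a median log2 ratio of -0.41. The 3, named after their values were seen, were *Megf10*, which encodes a receptor of satellite cell proliferation, with 140 counts in WT and 19 in KO, *Msc*, a bHLH repressor, with 39 and 5, and the imprinted gene *Peg3*, with 479 and 160. The integrin *Itga7* had 203 and 125 counts, 1.35-fold lower in KO (1.08 to 1.70), and desmin (*Des*), the intermediate filament of muscle cells, had 349 and 156, 1.86-fold lower (1.54 to 2.27). Many genes of this list also belong to vessel and blood cells. *Cxcr4*, a chemokine receptor, had between 2664 and 13410 counts in every library, and *Cd34*, also an endothelial and stromal gene, between 492 and 2021. Against fat 1 of the 20 tested, the Notch ligand *Jag2*, was higher in muscle, by 2.07 on the log2 scale (SE 0.324, edgeR adjusted p = 0.0138).

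Partners of the myogenic factors were present in all libraries. Of 17 such genes 16 could be compared in the muscle pair, with a median log2 ratio of -0.21. The E protein gene *Tcf3*, whose product dimerizes with the factors, had 1784 counts in WT and 1947 in KO muscle, *Mef2c* 3660 and 2567, *Mef2d* 6450 and 4113, and *Id3*, which encodes an inhibitor of E proteins, 1293 and 1409. *Id1*, an inhibitor of the same kind, was the 1 gene of 15 tested that was higher in muscle than in fat, by 1.89 (SE 0.298, edgeR adjusted p = 0.0138). Genes of early differentiation and fusion were mostly at low counts: of 15 in the table, 7 could be compared in the pair, with the embryonic light chain gene *Myl4* 2.20-fold higher in KO and *Jsrp1*, a gene of the junctional sarcoplasmic reticulum, 3.16-fold lower (1.14 to 10.8) on 19 and 5 counts, and a median of 0.11.

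Of the MuSK pathway, its ligand agrin (*Agrn*) had 802 counts in WT and 896 in KO muscle, 1.34-fold higher in KO, and its co-receptor *Lrp4* had 291 and 144, 1.68-fold lower in KO (1.37 to 2.07). *Lrp4* was the 1 of 11 tested genes of the pathway higher in muscle than in fat, by 4.25 (SE 0.747, edgeR adjusted p = 0.0300). The adaptor gene *Dok7* had 10 and 18 counts and rapsyn (*Rapsn*), which anchors the receptors, 26 and 21. *Chrna1*, the receptor's alpha subunit, had 30 and 5 counts, 5.0-fold lower in KO (1.92 to 16.5), and 9 counts in KO SAT on chow, the library that also had 6 *Musk* counts, and 0 in the other 5. Of 12 genes compared, 1 was more than 2-fold lower and 3 higher, namely *Dok7* and, named after their values were seen, *Colq* and *Ache*, with a median of -0.12.

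The partners of the calcitonin receptor and FGFR4 differed among themselves. The receptor activity modifying genes *Ramp1* and *Ramp2* had 679 and 671 counts in WT muscle and 551 and 611 in KO, or 1.03-fold lower and 1.09-fold higher, and *Ramp3* had 476 and 185, 2.14-fold lower in KO (1.80 to 2.55). *Klb*, the co-receptor beta-klotho, had 10 and 12 counts. The related receptor gene *Fgfr1* had 708 and 439 counts, 1.34-fold lower in KO (1.19 to 1.52), against the 6.22-fold of *Fgfr4*. Of 14 genes of this list compared, 1 was more than 2-fold lower and 3 were higher, *Fgfr3*, *Fgf1* and *Fgf2*, named after their values were seen, with a median of 0.41. Of the 14 tested against fat, 1 was called, *Calca*, which encodes calcitonin and CGRP, with a log2 difference of -4.14 (edgeR adjusted p = 0.0290) and also named after its values were seen.

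Genes of mature fibres differed from the 9 genes in their levels by tissue. Their summed level was 111 CPM in WT and 106 CPM in KO muscle, within the 89.2 to 315 CPM of the fat libraries, and 0 of 18 tested were called higher or lower in muscle. *Acta1*, skeletal actin, had 813 counts in the VAT library labelled WT against 185 in WT and 52 in KO muscle, and *Ckm*, muscle creatine kinase, 88 against 26 and 7. In the muscle pair, 7 of 20 were more than 2-fold lower and 2 higher in KO, with a median of -0.43. *Acta1* was 2.96-fold lower (2.17 to 4.11), *Ckm* 3.09-fold lower (1.31 to 8.44), and the tropomyosin gene *Tpm2* 3.71-fold higher. The fibre genes shared a lower level in KO with the 9 genes in part: their sum was 315 CPM in the VAT library labelled WT and 121 CPM in that labelled KO, though 111 and 131 CPM in WT and KO SAT on chow. Across the 4 pairs 0 of 18 were called by edgeR (adjusted p), and 5 of 18 had an unadjusted p under 0.05, all lower in KO, against 0.577% of all genes. These were *Acta1*, with a log2 difference of -3.26 (SE 0.754, edgeR unadjusted p = 0.00257), *Ckm*, at -4.54 (SE 1.52, edgeR unadjusted p = 0.0172), and, named after their values were seen, *Actn3*, *Myh1* and *Myl1*. The VAT pair, whose labels *Tert* does not bear out, is among the 4 here too, and a fit without it is not given for these genes.

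Markers of other cells moved between the muscle libraries too. Summed tendon genes were at 95.6 CPM in WT and 266 CPM in KO muscle, 2.78-fold higher, with *Scx* and *Mkx*, factors of the tendon lineage, at 31 and 32 counts in WT and 14 and 20 in KO. Mural genes summed to 145 and 338 CPM, 2.33-fold higher in KO, and fibro-adipogenic genes to 1283 and 2373 CPM, 1.85-fold higher. The 12 endothelial genes summed to 2245 and 2650 CPM, 1.18-fold higher, neutrophil genes were 1.15-fold higher, and Schwann cell genes went from 268 to 196 CPM. Counts more than 2-fold lower were 0 of 12 for endothelial, 0 of 12 for fibro-adipogenic, 0 of 9 for mural, 0 of 9 for Schwann, 0 of 7 for tendon, 0 of 8 for neutrophil, 4 of 8 for macrophage, 0 of 6 for B cell and 1 of 7 for T cell genes. Their part in the levels of the 9 genes was not tested.

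**Figure D5:**
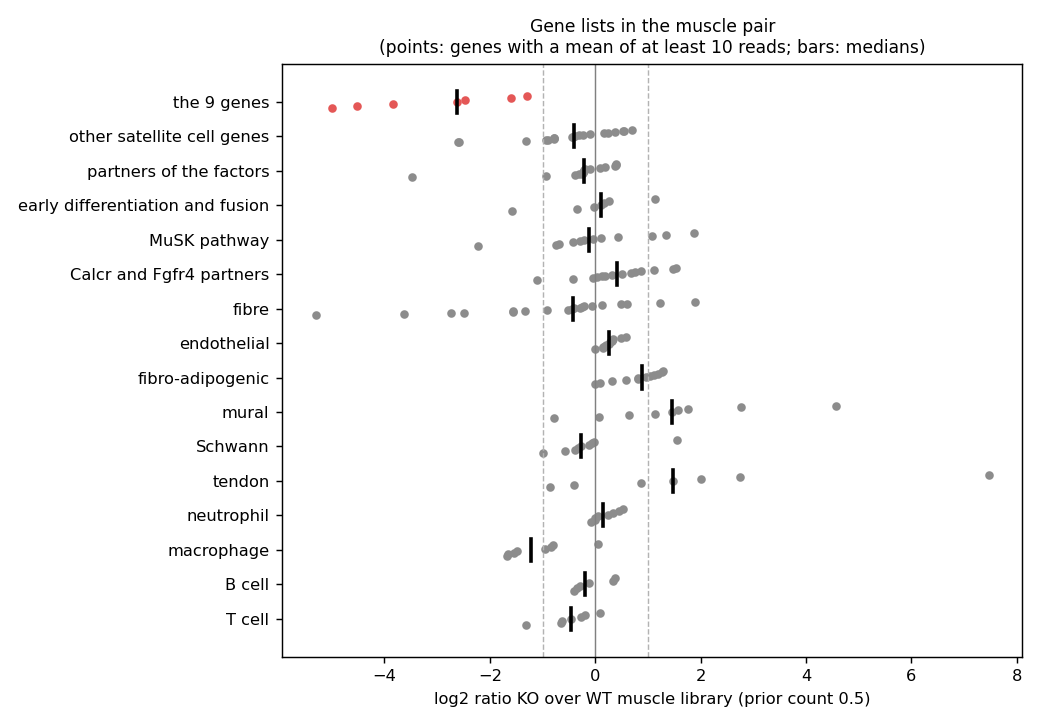
Log2 ratio KO over WT muscle library (horizontal axis) for the genes of each list averaging 10 counts or more over both libraries, as points, with the list's median as a black bar and dashed lines at 2-fold. The median of the 9 genes, over the 7 that passed, is -2.62, and that of the other satellite cell genes -0.41, while tendon and mural genes have medians of 1.48 and 1.46.

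The genes most alike the 9 in their pattern were ranked by Pearson's r of log2 CPM over the 8 libraries with the mean profile of the 9, among 16944 genes outside the 9 and the fibre list, a description over points that share depth and the zeros of SAT on HFD. *Megf10* ranked first (r = 0.988), above all 5 tested genes of the 9, with counts of 140 and 19 in muscle, 17 and 0 in VAT, 5 and 2 in SAT on chow and 0 on HFD. Other genes among the 8 most alike were *Prok2* (r = 0.946), which encodes prokineticin, *D230025D16Rik* (0.936), *Entpd3* (0.930), *Ptges3* (0.924), *Znfx1* (0.919) and the immunoglobulin segment *Ighv9-1* (0.917; 73 and 6 counts in muscle). Among the 9, r was 0.983 for *Fgfr4*, 0.956 for *Myf5*, 0.95 for *Pax7*, 0.938 for *Chodl* and 0.889 for *Cdh15*, each of which contributes to the profile.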

How the data were processed

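The authors deposited 1 table of read counts per Ensembl gene, whole numbers with no normalization, for the 8 libraries. The submitters' processing notes name HISAT2 2.0.5 and GRCm38 (mm10); the counting program and use of strand are not given in the sources used here. The sample labels give a SMARTER kit and column RNA isolation. The 9 genes and all gene lists were chosen with earlier results of these data known. Counts were scaled by TMM over all genes (edgeR 4.0.16, R 4.3.3). Genes averaging 10 counts or more were tested by the robust quasi-likelihood test of edgeR, which left 3 residual degrees of freedom and was tested on simulated data; adjusted p under 0.05 was a call. Each genotype has 1 library per tissue and diet, so p-values rest on what tissue, diet and an additive genotype term leave over between these libraries. They do not measure the spread between mice of a group. The muscle pair was compared by the ratio of scaled counts with an exact conditional binomial (Clopper-Pearson) 95% interval in Python 3.11.15; log2 ratios, used for medians and the 2-fold counts, had a prior count of 0.5. Folds against 0 counts are bounds against 3 counts. Named genes were the 9, up to 6 genes per list with the highest length-scaled level in muscle, fixed pathway genes, and the 8 genes most alike in pattern, of which some results are not reported here. Coordinates are those of the table, and overlaps are from GENCODE M21. DESeq2 1.42.0, other scalings, filters, prior counts and left-out libraries were tried as alternatives. No reads were processed.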

Additional observations from a re-analysis of the deposited data

Results flagged for a closer look

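*Chodl* and *Musk* went the opposite way in SAT on chow from muscle, a difference that was not tested. *Chodl* had a log2 ratio, KO over WT, of 1.1 in SAT on chow (3 and 7 counts) against -1.30 in muscle, and the SAT interval, from -0.91 to 3.81, includes equality. *Musk* had 0 and 6 counts in WT and KO SAT on chow, at least 2.0-fold higher in KO against the floor of 3 counts, with a log2 counting interval from 0.24 upward; its log2 ratio of 3.70 is set by the prior count of 0.5. In muscle it had -0.68 (8 and 4 counts), with an interval from -2.92 to 1.16 that includes equality. *Tert*, the deleted gene, had 0.90 in VAT (3 and 9 counts) against -1.46 in muscle, also not tested, and its VAT interval, from -1.02 to 3.50, includes equality.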

How the results depend on the processing

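Groups of 1 library per genotype limit all of these results, and between 0 and 25 counts per gene in fat limit the precision there. Log2 differences kept their sign in 86 of 86 values over the alternatives for muscle against fat and in 40 of 40 for KO across the pairs, both over the 5 tested genes of the 9. The 86 count chow alone and without SAT on HFD, the same fit, as 2 alternatives. For the muscle pair the sign was kept in 28 of 28 values, over the 7 that passed its filter. These reuse the same 2 libraries under other scalings or a larger prior count, so a change of sign was hardly possible and nothing is concluded from them. Counts of calls did not keep their size. Muscle against fat, with 623 genes and 1 of the 9 called, gave 1374 genes and 3 of the 9 without the filter on low counts, 1311 and 3 by DESeq2's Wald test, 359 and 0 on chow alone, and 343 and 0 against VAT alone; 0 of the 9 were called with DESeq2 size factors or library totals. Leaving out 1 pair or library gave from 64 genes, without KO muscle, to 1328, without KO SAT on chow, and from 0 to 2 of the 9. KO across the pairs, with 1 gene called, gave 42 without the filter, 23 by DESeq2's Wald test, 0 without the block and from 0 to 2 leaving out a pair; 0 of the 9 were called in any, but without the muscle pair none of them passed the filter. In the muscle pair, 2530 genes were beyond 2-fold, 1043 of them lower; with a mean of at least 50 counts these were 709 and 312 (2.52% of all genes lower), with 3 of the 9 genes passing and lower, of which *Pax7* and *Fgfr4* passed through the WT library, and with at least 1 count 9153 and 3567. With library totals the summed level in WT muscle was 59.0 CPM. The causes were not tested.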
